A study of Mus musculus with 15 samples.

Results

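Platr genes, whose symbol stands for pluripotency-associated transcript, are mouse long non-coding RNAs that were named for their presence in embryonic stem cells and their loss as the cells differentiate. A site in the deposited lists of SAM68 binding was counted as a Platr site where its Ensembl gene ID lay in the span of a gene named Platr and a number in the RefSeq table for GRCm38.p6. Of 18 such genes, 7 held at least 80% of an ID's sites and were counted, namely Platr3, Platr10, Platr14, Platr20, Platr21, Platr22 and Platr25. Together they held 129 of 132293 sites and were 7 of 7949 genes with a site. An eighth, Platr4, missed this rule because 7 of its ID's 10 sites lay inside the RefSeq span, and its values are given apart. The other 10, Platr5, Platr6, Platr7, Platr8, Platr9, Platr11, Platr26, Platr27, Platr29 and Platr30, had no site of any gene inside their spans on any day.

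SAM68, the product of Khdrbs1, is a STAR family protein that binds RNA rich in A and U and acts in splicing and other steps of RNA processing. Its sites were mapped by iCLIP2, in which ultraviolet light links protein to RNA, the protein is pulled down with an antibody and the linked nucleotide is read from where reverse transcription stops. Long non-coding RNAs of stem cells can act at their own locus or on distant genes. In mouse, Platr14 has been linked to the expression of differentiation genes and Platr4 to commitment of mesoderm to the heart lineage.

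The E14 line of mouse embryonic stem cells was used for all groups, with no genetic change stated in the labels. At day 0 the cells were undifferentiated and grown without feeders with LIF and inhibitors of GSK and MEK. At day 3 and day 10 they were embryoid bodies, which are clumps of differentiating cells, formed in hanging drops for day 3 and in spheroid plates for day 10, so day and culture format cannot be told apart. Embryoid bodies were also taken apart into single cells before irradiation. Each day had 5 libraries, 15 in all, and no label says whether they came from separate cultures. The authors deposited 1 list of 5-nt sites per day, with 29740 sites on day 0, 28266 on day 3 and 74287 on day 10. No value belongs to a single library, so the spread between replicates is unknown, no test between days was made, and the depth of each library is unknown.

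The labelled cell states were set against marker genes. Stem cell markers had 153 sites on day 0, 10 on day 3 and 1 on day 10, with 46, 2 and 0 of them in Nr5a2, while Sox2 had no site on any day. Primed-state markers held 0, 45 and 0 sites, cardiac and mesodermal markers 0, 4 and 794, endodermal markers 0, 5 and 169, and neural markers 0, 0 and 149, all in Robo2. On day 10 Slc8a1 held 439 of the cardiac and mesodermal sites, where Tnnt2 held 3 and Actc1 2. Of the endodermal sites on day 10, Col4a1 held 87, Dab2 80 and Afp 2. T, Eomes, Nkx2-5, Myh7, Sox17, Foxa2, Sox1, Pax6, Tubb3 and Nes were at 0 throughout. Here and below, a gene at 0 has no listed site under its name. Sites where genes overlap had been dropped from the lists, and some IDs could not be named.

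SAM68 sites inside a RefSeq promoter window, which runs from 250 bases before to 50 after a listed start, could be read as sequence, and these are the only Platr sites for which that was so. They lie near a 5′ end because only such windows could be read, so this place says nothing particular about the genes. They fall in the 2 Platr genes that stand at opposite ends of the day 0 and day 3 comparison below. Platr22 had 2 adjoining day 3 sites at 32 and 37 nt after the start of its span. Platr14 had 2 day 0 sites at 96 and 192 nt after the start of its span, which are at -179 and -83 relative to the start in the RefSeq promoter table. Capitals mark the 5-nt sites, written as DNA on the + strand of GRCm38.p6 in the sense of the transcript, from chr1:136696211-136696260 for Platr22 and chr2:104559248-104559408 for Platr14.
Platr22: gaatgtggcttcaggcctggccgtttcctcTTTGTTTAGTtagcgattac
Platr14: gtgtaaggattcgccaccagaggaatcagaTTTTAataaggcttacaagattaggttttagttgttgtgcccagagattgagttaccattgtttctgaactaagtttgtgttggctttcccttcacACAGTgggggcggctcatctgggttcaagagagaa

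The letters of the 4 sites were TTTGT and TTAGT in Platr22 and TTTTA and ACAGT in Platr14. SAM68 is known for motifs of the form UAAA and UUAA, searched here as TAAA and TTAA on the transcript's strand only, where the pair overlaps in TTAAA. The Platr22 stretch held neither, and the Platr14 stretch held 1 TTAA, which overlaps the first site, and no TAAA. Of 32817 RefSeq windows of 300 bases, 58.0% held TAAA and 52.4% held TTAA on that strand. Across all genes, 227 site positions lay in such windows with 15 nt on either side, and T made up 48.0% of their 5-nt letters against 23.0% of all window letters. TTAA was found in 15.4% of the 35-nt stretches around them against 9.69% of all 35-nt stretches of the windows, and TAAA in 12.3% against 11.4%. Most of each window lies before the listed start, so the background is not transcribed RNA alone and these values do not measure a preference of SAM68.

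The Platr genes that the authors class as non-coding held SAM68 sites on day 0 and day 3 and none on day 10. These are the lincRNA genes Platr3, Platr10, Platr20 and Platr22 and the processed transcripts Platr14 and Platr21. Their sites numbered 38, 55 and 0, or 12.8 (day 0) and 19.5 (day 3) per 10000 sites of the list. All 6 had a site on day 0 and all 6 on day 3. At the day 0 share, 94.9 sites would have fallen to them in the longer day 10 list. Platr25 differed from the 6, with 8, 6 and 22 sites. Including it, Platr genes held 46, 61 and 22 sites, or 15.5 (11.3 to 20.6), 21.6 (16.5 to 27.7) and 2.96 (1.86 to 4.48) per 10000, where the 95% Poisson intervals cover counting error only. Sites within a gene are not independent, so all intervals here are too narrow. RNA abundance was not used here, and fewer cells that make a transcript, less of it per cell and less binding cannot be told apart.

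**Figure D1:**
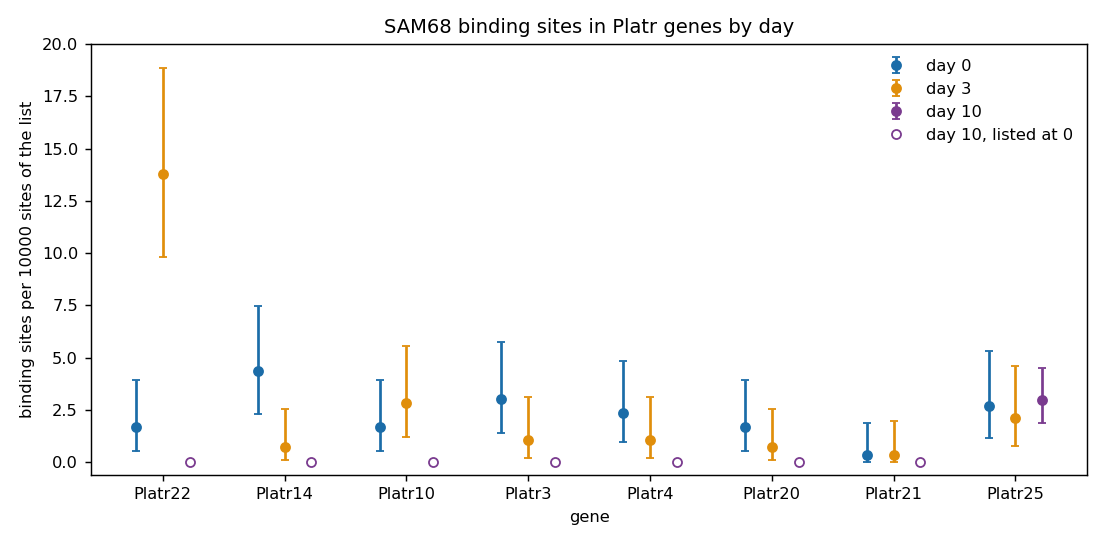
SAM68 binding sites per 10000 sites of the day's list for 8 Platr genes, with 95% Poisson intervals that cover counting error only. Filled points are day 0, day 3 and day 10, and open circles mark genes listed at 0. Platr22 on day 3 (13.8) stands above every other point, and Platr25 is the 1 gene with a day 10 value above 0.

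Platr22 held most of the sites on day 3. Platr22 (ENSMUSG00000097448) is a lincRNA of chromosome 1 on the + strand, from 136696211 to 136725728, with 1 RefSeq transcript. It held 5 sites on day 0, 39 on day 3 and 0 on day 10. On day 3 it was the lncRNA-class gene with the second most sites of 189 with a site, behind Kcnq1ot1, an imprinted antisense RNA, with 62. On day 0 it shared place 46 of 218. Its share on day 3 was 8.21 times the day 0 share (95% exact conditional binomial interval 3.23 to 26.7, counting error only).

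The day 3 sites of Platr22 spread over the whole gene, while its day 0 sites did not. On day 3 they ran from 32 to 29181 nt after the 5′ end, with 14 before and 25 beyond the midpoint of the span and a median gap of 428 nt. The 39 sites formed 37 groups when sites at most 20 nt apart were joined, so the count was not made of a few dense clusters. The 5 day 0 sites lay between 16483 and 24418 nt, all beyond the midpoint. From 5′ to 3′, the nearest day 3 site to each was 2, 13, 11, 1 and 84 nt away. Hence 4 of 5 had a day 3 site within 20 nt, and 2 of 5 overlapped one.

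Platr14, Platr3, Platr20 and Platr4 held more of their sites on day 0. Platr14 (ENSMUSG00000086454) is a processed transcript of chromosome 2 on the + strand, from 104559184 to 104571429. It held 13 sites on day 0, 2 on day 3 and 0 on day 10, and its day 3 share was 0.162 times the day 0 share (0.0177 to 0.715). The 13 sites lay from 96 to 10048 nt after the 5′ end, 10 of them before the midpoint of the span and no pair closer than 45 nt. Neither day 3 site, at 3831 and 7022 nt, overlapped a day 0 site. Against the 32.5 sites that an unchanged share would have put in the day 10 list, it had none.

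Platr3 (ENSMUSG00000084762), a lincRNA of chromosome 2 from 135646523 to 135652067 on the + strand, had 9 sites on day 0, 3 on day 3 and 0 on day 10. Its day 3 share was 0.351 times that of day 0, with an interval that includes 1 (0.0611 to 1.41). All of its sites lay from 2493 nt onward in a span of 5.55 kb, and 1 position was bound on both days with centres 4 nt apart (3592 on day 0 and 3596 on day 3). Platr20 (ENSMUSG00000086646), a lincRNA on the - strand of chromosome 11 from 51189833 to 51220418, held 5, 2 and 0 sites, 0.421 times the day 0 share on day 3 (0.0401 to 2.57). Its sites lay between 1141 and 16235 nt, and 6 of the 7 lay before the midpoint of the span.

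Platr4 (ENSMUSG00000097639 by position), a lincRNA of chromosome 3 on the - strand whose RefSeq span runs from 41487681 to 41493199, held 7 sites on day 0, 3 on day 3 and 0 on day 10. Its day 3 share was 0.451 times that of day 0 (0.0752 to 1.98). The 3 sites outside the span lay 1635, 1708 and 2003 nt beyond its 3′ end on the same strand and carry the same Ensembl ID. No day 3 site overlapped a day 0 site. With Platr4, the non-coding Platr genes held 45, 58 and 0 sites.

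Platr10 and Platr21 did not follow either direction. Platr10 (ENSMUSG00000099370), a lincRNA on the - strand of chromosome 3 from 75647441 to 75655731, held 5 sites on day 0, 8 on day 3 and 0 on day 10. Its day 3 share was 1.68 times that of day 0 (0.486 to 6.54). The site centred on 75648479, at 7252 nt, was in both lists at the identical position, the 1 such case among Platr genes. Platr21 (ENSMUSG00000086807), a processed transcript on the - strand of chromosome X that spans 118 kb from 139240226 to 139357738, had 1 site on day 0, 1 on day 3 and none on day 10. These were 6420 and 18600 nt from the 5′ end, too few to compare.

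Platr25 held sites on every day. The ID ENSMUSG00000074863 on the - strand of chromosome 13 is classed by the authors as protein-coding, whereas RefSeq lists Platr25, from 62671784 to 62762002, as a miscellaneous RNA with 18 transcripts. The name rests on position alone, and no strand for Platr25 was in the tables used. It had 8 sites on day 0, 6 on day 3 and 22 on day 10, making 2.69, 2.12 and 2.96 per 10000. The day 10 share was 1.10 times the day 0 share (0.472 to 2.86) and 1.40 times the day 3 share (0.549 to 4.21). On day 10, 12 of 22 sites lay before the midpoint of the span, against 1 of 6 on day 3 and 0 of 8 on day 0, and 7 lay between 18885 and 21983 nt, where neither earlier list had a site. Zinc finger genes lie nearby, such as Zfp934, and how the authors treated reads shared between related copies is not given in the sources used here.

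**Figure D2:**
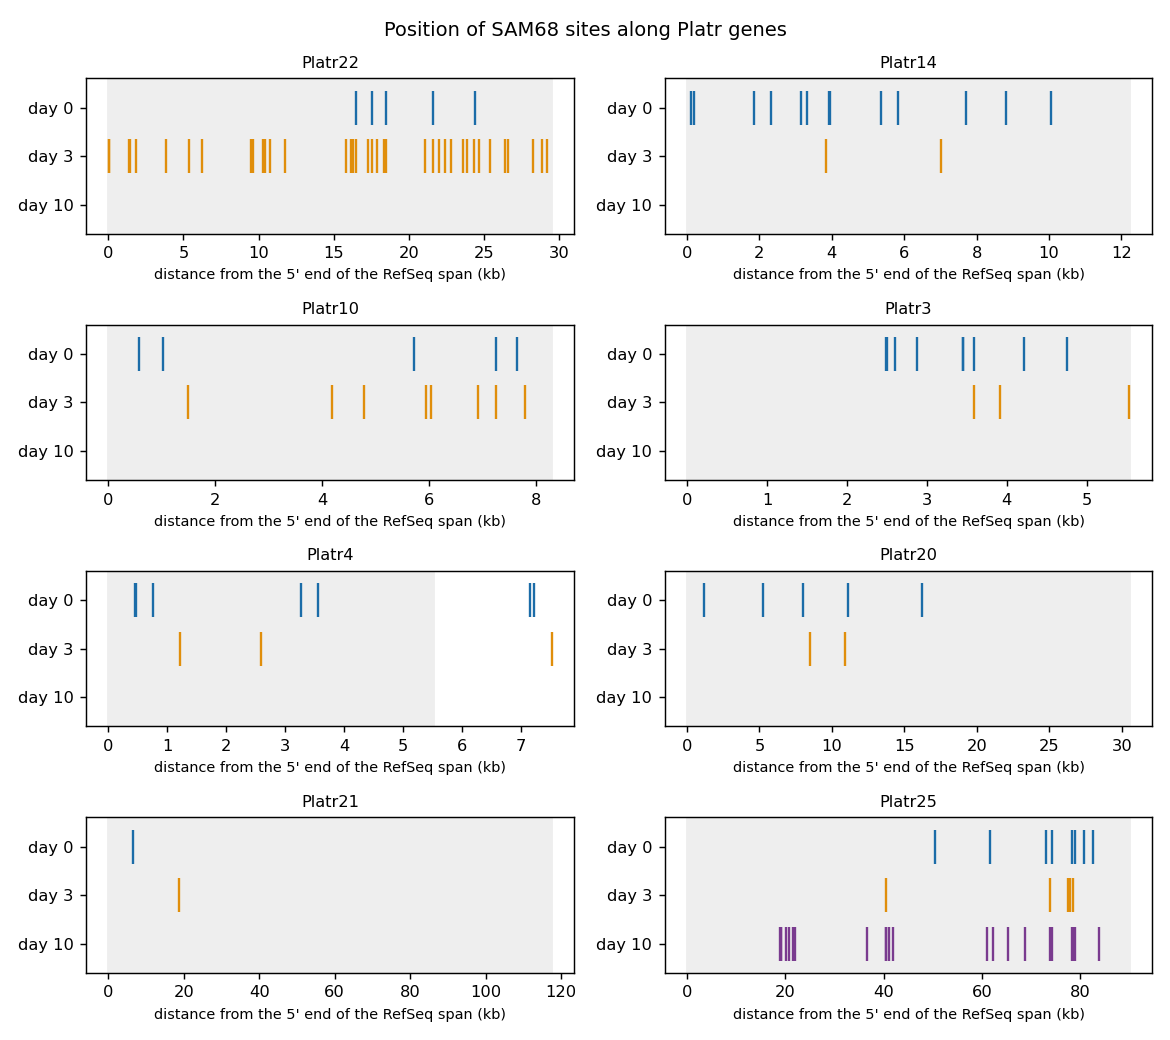
Position of each SAM68 site along 8 Platr genes, in kb from the 5′ end of the RefSeq span (grey), with 1 row per day from day 0 to day 10. Day 3 sites of Platr22 cover its span while its 5 day 0 sites lie beyond its midpoint, 3 Platr4 sites lie beyond the span, and Platr25 alone has day 10 marks.

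Set in order by share, 1 gene stood apart from the rest on day 3, and on day 10 Platr25 alone had sites. On day 3 Platr22 with 13.8 sites per 10000 (9.81 to 18.9) lay above Platr10 with 2.83 (1.22 to 5.58), and no other neighbours in the day 3 order had separate intervals. The day 0 order, with Platr14 at 4.37 (2.33 to 7.47), Platr3 at 3.03 (1.38 to 5.74), Platr25 at 2.69 (1.16 to 5.30), Platr10, Platr20 and Platr22 at 1.68 (0.546 to 3.92) and Platr21 at 0.336 (0.00851 to 1.87), had overlapping intervals between all neighbours. Per length of span the order was another one. Platr3 held 16.2 sites per 10 kb on day 0, Platr14 10.6, Platr10 6.03, Platr22 1.69, Platr20 1.63, Platr25 0.887 and Platr21 0.0851. On day 3 Platr22 held 13.2 sites per 10 kb, Platr10 9.65, Platr3 5.41, Platr14 1.63, Platr25 0.665, Platr20 0.654 and Platr21 0.0851.

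To set these counts against other genes, a gene was called where its share differed at least 2 times between a pair of lists and it had at least 5 sites over both. For day 10 against day 0, 6 of 7 Platr genes had enough sites, of which 5 were lower on day 10, 1, Platr25, was within 2 times and none was higher. By the same rule 26.8% of 3745 genes were lower on day 10, and 40.7% of 113 other genes of the lncRNA classes. The shares higher on day 10 were 34.5% and 32.7%. The 5 reached 5 sites through day 0 alone, so that their being called follows from the zero on day 10. Platr4 with 7 and 0 sites would be a sixth. For day 3 against day 0, 6 of 7 had enough sites, and 3 were lower on day 3 (Platr3, Platr14 and Platr20), 1 higher (Platr22) and 2 within 2 times (Platr10 and Platr25). Among all 2742 genes 21.3% were lower and 23% higher, and among 87 other lncRNA-class genes 29.9% and 17.2%. The 3 lower genes reached 5 sites through day 0 alone, whereas Platr22 did so on either day. For Platr3 and Platr20 the interval of the ratio given above includes 1. For day 10 against day 3, 3 had enough sites, of which Platr10 and Platr22 were lower on day 10 and Platr25 was within 2 times. Here 24.6% of 3680 genes were lower and 29.2% higher, and of 102 other lncRNA-class genes 34.3% and 32.4%. Platr10 and Platr22 reached 5 sites through day 3 alone, so that these calls too follow from the zero on day 10. No test of the Platr counts against these shares was made.

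A zero in the day 10 list was less common among other genes. Among genes that had 5 or more sites when days 0 and 3 were added, 5 of 6 Platr genes had none on day 10, against 26 of 87 other lncRNA-class genes, Lncenc1 among the 26 (29.9%), 239 of 2623 protein-coding genes (9.11%) and 9.99% of all 2742. The Platr genes were named for loss on differentiation, so this compares a family picked for that behaviour with one that was not, and no test was made. The other lncRNA-class genes, without Platr4, Lncenc1 and Kis2, held 961, 685 and 1847 sites, 323, 242 and 249 per 10000, so their pooled share on day 10 was 0.769 times that of day 0 (0.711 to 0.833).

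Summed over Platr genes, the share on day 3 was 1.40 times the day 0 share (0.936 to 2.09). This value rests on Platr22, for without it the ratio was 0.565 (0.320 to 0.970). The summed share on day 10 was 0.191 times that of day 0 (0.110 to 0.325) and 0.137 times that of day 3 (0.0802 to 0.227), and all 22 day 10 sites belonged to Platr25. The median log2 ratio over the 7 genes, with a pseudocount of 1, was -3.91 for day 10 over day 0, -0.29 for day 3 over day 0 and -2.98 for day 10 over day 3. Over all genes with a site in the pair of lists, it was -0.32, 0.07 and -0.39. The pseudocount was added to site counts before scaling by list length. A gene with no site on the earlier day and a single site on day 10 thereby gets -0.32 against day 0 or -0.39 against day 3. The all-gene medians for day 10 equal these values and do not show lower shares in general.

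Few positions in Platr genes were bound on more than 1 day. Leaving Platr25 aside, 4 of 55 day 3 sites overlapped a day 0 site by at least 1 nt (7.27%, exact binomial interval 2.02 to 17.6), against 183 of 685 in other lncRNA-class genes (26.7%, 23.4 to 30.2) and 18.3% in all genes. Seen from day 0 it was 4 of 38 (10.5%, 2.94 to 24.8), against 188 of 961 (19.6%, 17.1 to 22.2) and 17.4% in all genes. The 4 positions were 2 in Platr22, 1 in Platr3 and 1 in Platr10, and none lay in Platr4, Platr14, Platr20 or Platr21. Because 39 of the 55 sites were in Platr22, with 5 sites on day 0, most of them had no day 0 site to meet. In Platr25, 3 of 22 day 10 sites overlapped a day 0 site and 2 of 22 a day 3 site.

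Lncenc1, listed by RefSeq with Platr18 as a synonym, is a stem cell lincRNA linked in mouse to pluripotency and glycolysis. It had 19 sites on day 0, 18 on day 3 and 0 on day 10. All lay from 47779 nt onward in its 62.7-kb span on the + strand of chromosome 13, with centres between 97482749 and 97496868. Its day 3 share was 0.997 times that of day 0 (0.493 to 2.01). In all the non-coding Platr genes together 4 of 55 day 3 sites overlapped a day 0 site and 1 was at the identical position, against 7 and 3 of 18 in Lncenc1. Kis2, listed with Platr24 as a synonym, held 0, 2 and 0 sites. With these and Platr4, non-coding genes with a Platr symbol or synonym held 64, 78 and 0 sites.

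The genes of non-coding class with a day profile most like that of all Platr genes together were found by dividing the 3 shares by their sum and adding up the absolute differences over the 3 days. The Platr profile was 38.7% on day 0, 53.9% on day 3 and 7.40% on day 10. The day 10 part is Platr25 alone and 39 of the 61 day 3 sites are in Platr22, so the sum is a mixture and the 6 non-coding Platr genes, at 0 on day 10, do not show it. Among 103 genes with at least 10 sites, the nearest were Gm5784 with 4, 5 and 2 sites (difference 0.0331), Zfas1, a host gene of small nucleolar RNAs, with 4, 5 and 1 (0.0652), 1110002L01Rik with 5, 7 and 1 (0.0853), AU020206 with 9, 11 and 7 (0.0917) and ENSMUSG00000097648 with 20, 30 and 2 (0.127). The likeness covers 3 days and few sites per gene.

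**Figure D3:**
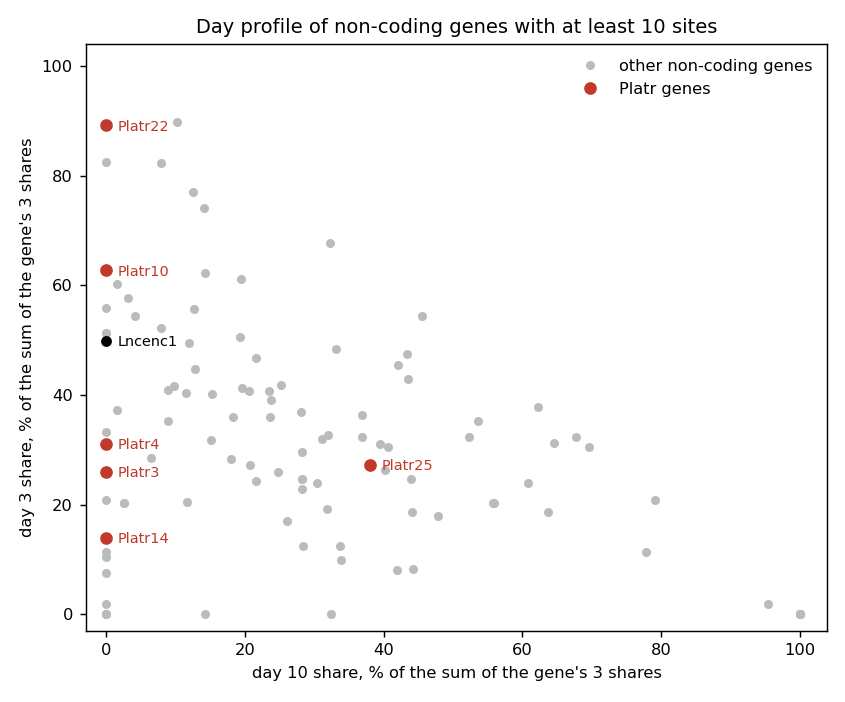
Day profile of non-coding genes with at least 10 sites, with the day 10 share on the x axis and the day 3 share on the y axis, each as a percent of the gene's summed shares over 3 days. Grey points are 103 genes, of which Lncenc1 is drawn in black, and red points are the Platr genes with at least 10 sites. All red points but Platr25 lie on the line of no day 10 site, together with Lncenc1 and some other genes, and they spread along the day 3 axis.

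Next to Platr22 lies Nr5a2, an orphan nuclear receptor of the naive stem cell state, 117 kb away and on the opposite strand. Platr22 held 5 sites on day 0, 39 on day 3 and 0 on day 10, where Nr5a2 held 46, 2 and 0. The day 3 share was 8.21 times the day 0 share for Platr22 (3.23 to 26.7), against 0.0457 times for Nr5a2 (0.00538 to 0.175), so that the neighbours ran in opposite directions between day 0 and day 3 and both were at 0 on day 10. On the other side Zfp281, a zinc finger factor of the exit from the naive state, held 0, 2 and 2 sites at a distance of 65.8 kb.

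Of 14 nearest protein-coding genes around 7 Platr loci, those of Platr22 included, 12 had a site on any day and 10 on day 10. Among all genes with a site, 6345 of 7949 had one on day 10, so the neighbours' count is near that of genes in general. Cstf3, a subunit of a cleavage factor for messenger RNA 3′ ends, lies 19.1 kb from Platr14 on the same strand and held 21, 18 and 44 sites, 0.839 times its day 0 share on day 10. Hipk3, a protein kinase on the other side, held 0, 0 and 5. Jade1, a subunit of a histone acetyltransferase complex 62.5 kb from Platr4, held 41, 19 and 31, and Pgrmc2, a heme-binding membrane protein, 2, 1 and 3. Platr3 lies between Plcb1 and Plcb4, which encode phospholipases C, with 0, 0 and 9 and with 2, 1 and 1 sites. Platr10 lies between Serpini1, a protease inhibitor, with 0, 1 and 0 sites and Golim4, a Golgi protein, with 0, 0 and 2. Gm36298 and Gm5141 beside Platr25 held 0, 0 and 1 and 0, 0 and 5. Zfp354a and Gm12569, the neighbours of Platr20, had no site on any day.

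**Figure D4:**
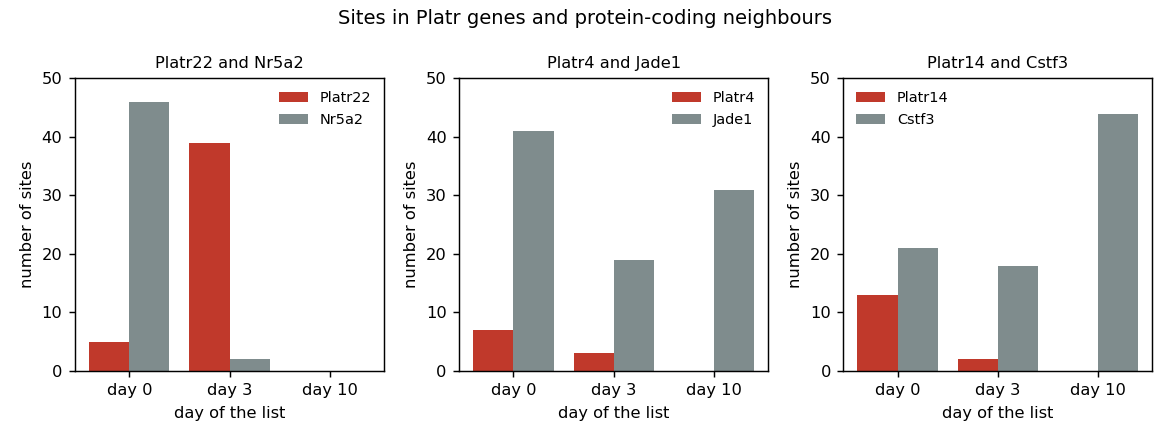
Number of SAM68 sites on day 0, day 3 and day 10 in 3 Platr genes (red) and in their protein-coding neighbours with more than 10 sites on a day (grey). Platr22 has 5, 39 and 0 sites where Nr5a2 has 46, 2 and 0, and on day 10 Platr4 and Platr14 have none while Jade1 has 31 and Cstf3 has 44.

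Factors of the pluripotency network held a smaller share of the sites on day 10 too. Of 30 listed genes 23 had a site, with 384 sites on day 0, 193 on day 3 and 192 on day 10. Per 10000 sites of the list these were 129, 68.3 and 25.8. The list includes all 8 stem cell markers used above, 5 of which are among the genes called lower on day 10 than on day 0. It is therefore not separate from them. Of those with enough sites, 10 of 13 were lower and none higher on day 10 than on day 0, where 26.8% of all genes were lower and 34.5% higher. On day 3, 9 of 13 were lower and none higher than on day 0, against 21.3% and 23% of all genes. The 10 and the 9 lower genes all reached the minimum number of sites through day 0 alone. Genes of this list were picked for a part in pluripotency, so their lower shares are no independent support for the Platr counts. No test of them was made. Between the embryoid bodies, 4 of 10 were lower and 3 higher on day 10, against 24.6% and 29.2%. The median log2 ratio for day 10 against day 0 was -3.11, and -0.32 over all genes, where the second value carries the pseudocount offset given above. Members with most sites were Tcf7l1, a repressor at Wnt targets, with 64, 70 and 101, Jarid2, a Polycomb partner, with 35, 60 and 51, Rif1, a telomere and replication factor, with 35, 27 and 6, and Nr5a2.

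A list of other long non-coding RNAs lay near all genes for day 10 against day 0. Of 36 listed, 22 had a site, with 247, 176 and 789 sites. Of those with enough sites, 4 of 17 were lower and 7 higher on day 10 than on day 0, against 26.8% and 34.5% of all genes. On day 3, 4 of 16 were lower and 5 higher than on day 0 (21.3% and 23% of all genes), and on day 10, 6 of 18 were lower and 7 higher than on day 3 (24.6% and 29.2%). Lncenc1, set with the Platr genes above, is in this list and is among the genes lower on day 10 in both comparisons. The list is therefore not fully separate from the Platr genes. The median log2 ratio for day 10 against day 0 was -0.29, and -0.32 over all genes. Because of the pseudocount offset given above, these medians are no neutral reference, and the counts of genes are the measure here. Kcnq1ot1 held 75, 62 and 158 sites, Airn, another imprinted antisense RNA, 3, 2 and 267, Dleu2, a host gene of microRNAs, 58, 9 and 122, and Neat1, the scaffold of paraspeckles, 32, 7 and 50.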

How the data were processed

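SAM68 iCLIP2 was done in 15 libraries, 5 per day. Per the labels' protocols, cells were irradiated at 254 nm with 150 mJ/cm2, fragments of 50 to 200 nt were made, and a molecular identifier came with the second adapter. Builds GRCh38.p14 and GRCm38.p5 stand in the submitters' processing notes, beside the tools STAR 2.7.11a, SAMtools 1.22.1, UMI-tools 1.1.6, bedtools 2.31.1, MultiQC 1.31 and FastQC 0.12.1. How sites were called and libraries combined is not given in the sources used here. Per the file headers, each site had been given to a gene and sites where genes overlap had been dropped. The deposited score of every site is 0 and was not used.

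IDs took the symbol of the RefSeq gene (GRCm38.p6) that held at least 80% of their sites, on the same strand where known and of the same class where possible, which named 7589 of 7949. The lncRNA classes are lincRNA, antisense, processed transcript, bidirectional promoter, macro, sense overlapping and sense intronic. Shares are sites over list length. Positions are site centres counted from 1. The text names every Platr gene with a site, the nearest protein-coding genes of those with at least 5, the 5 nearest day profiles and up to 4 members per list with most sites. Members and lists were chosen with earlier results of these data known. Steps were tested on simulated data in which sites were independent and only genes with many sites were changed. That test covered neither genes with as few sites as most Platr genes nor sites that depend on each other. Sequences are from RefSeq (GRCm38.p6). Python 3.11.15, NumPy 2.4.6, pandas 2.3.3, SciPy 1.17.1 and matplotlib 3.10.9 were used.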

Additional observations from a re-analysis of the deposited data

How the results depend on the processing

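No paired analysis was possible because the lists carry no value for a single library, and for the same reason no library could be left out. Of 97 recomputed values, 71 stayed close to those reported, 25 moved and 1 reversed. The summed day 3 to day 0 ratio reversed to 0.565 without Platr22, whose removal also gave 7.78 per 10000 on day 3 and a day 10 to day 3 ratio of 0.380. Without Platr25, an alternative chosen after seeing the data, the day 10 share, both day 10 ratios and the shares of day 0 and day 3 sites that overlap a day 10 site were 0. With Lncenc1 and Kis2, also added afterwards, the shares were 21.9 on day 0 and 28.7 on day 3. Per 10000 sites of genes that are not protein-coding, Platr genes held 330 on day 0, 619 on day 3 and 99.9 on day 10, although this total leaves out the sites of Platr25, which the authors class as protein-coding and which has all 22 of day 10. Per 10000 sites of the lncRNA classes, the 6 non-coding Platr genes held 371, 721 and 0. Their day 3 to day 0 ratio was then 1.94 (1.26 to 3.02), against 1.52 (0.989 to 2.37) over whole lists. For all Platr genes over the non-coding total it was 1.87 (1.26 to 2.81), counted as close to the 1.40 reported. Whether the interval includes 1 thus depends on the total used. With the non-coding total 2 genes were higher on day 3 than on day 0. Scaled by the number of bound genes, the day 10 ratios were 0.381 to day 0 and 0.286 to day 3. At a fold of 4, 1 gene was lower on day 3 than on day 0. With at least 10 sites, 1 gene was lower on day 10 than on day 0 and 1 lower than on day 3, where at least 2 sites gave 5. Fewer genes pass a higher minimum by construction. At identical positions, 2.17% of day 0 sites were shared with day 3 and 1.64% of day 3 sites with day 0, and overlaps with day 10 were 0%. The cause of the other shifts was not tested.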
